A study of Homo sapiens with 4 samples.

Results

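Matrix proteases and their inhibitors were followed in MDA-MB-231 cells, a human breast carcinoma line of mesenchymal type, after loss of the transcriptional repressor ZEB2. The group was a named list of 48 genes that covers matrix metalloproteases (MMPs), ADAM and ADAMTS proteases, the plasminogen system, cathepsins, TIMPs, serpins and cystatins. A gene was read by probe sets annotated with its symbol alone, which gave values for 47 of the 48 genes on 113 probe sets, out of 19775 genes with such a probe set on the array. SERPINB2 was not analysed here. The probe set with the highest mean of the 4 arrays stood for a gene, and its other probe sets served as a check. Of the 47 genes, 41 reached log2 4.77 on at least 1 array, the 40th percentile of all deposited values and here the level under which a probe set is called dim, and 6 stayed under it on every array (MMP7, MMP10, MMP13, ADAMTS5, SERPINB5 and KLK10).

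RNA of 4 cultures was read on Affymetrix U133 Plus 2 arrays, with a single array for each group. The shRNA ZEB2 knockdown was a line stably transduced with a ZEB2 hairpin, and the shRNA control was MDA-MB-231 transduced with the pLVTH control. The siRNA ZEB2 knockdown received a pool of ZEB2 siRNAs at 20 nM, and the siRNA control received siRNA against luciferase at the same dose, with a wash at 24 hours and harvest 48 hours later. Labelling started from 2 microg of total RNA for the shRNA cultures and from 100 ng for the siRNA cultures. The first 2 groups form the stable pair and the other 2 the transient pair, and each difference is knockdown minus control. Whether the stable lines were single clones is not given in the sources used here. All values below are the deposited log2 expression values of a probe set. All differences are log2 differences, where 1 unit is 2-fold. With 1 array in each group, no difference within a pair has an error or a test, so genes were counted at 1.5-fold and 2-fold and set beside the share of all 15082 genes that passed the same mark.

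Proteolysis of the extracellular matrix lets carcinoma cells leave their tissue. Secreted MMPs cut collagens, laminins and proteoglycans outside the cell, while membrane-type MMPs do so at its surface and also activate other MMPs. Urokinase (PLAU), bound to its receptor (PLAUR), turns plasminogen into plasmin, which cuts fibrin and can activate MMP zymogens. TIMPs block MMPs and some ADAMs, serpins and Kunitz-type inhibitors block serine proteases, and cystatins block cysteine cathepsins. Many MMP genes, and PLAU, are known targets of AP-1 and ETS transcription factors.

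ZEB2 read 3.52 in the shRNA knockdown against 6.12 in the shRNA control, and 3.51 in the siRNA knockdown against 6.56 in the siRNA control, on its brightest probe set. The MDA-MB-231 markers VIM, CD44, MSN, AXL, CAV1 and ANXA1 had a mean log2 level between 12.74 and 12.81 on all 4 arrays. The epithelial marker CDH1, which this line is known to silence, read 8.35 and 7.37 on the siRNA knockdown and siRNA control arrays and 4.26 and 3.54 on the shRNA knockdown and shRNA control arrays. CDH1 was 1 of 8 luminal and hormone receptor markers. As siRNA control minus shRNA control it differed by 3.83 and GATA3 by 1.08. KRT8 (0.43), KRT18 (0.25), ERBB2 (0.12) and ESR1 (0.09) differed less. PGR (-0.10) and FOXA1 (-0.25) were dim on all arrays. The transient and stable cultures thus differed in CDH1 also where ZEB2 was present, and they differed in RNA input as well. An array of a whole culture cannot tell fewer expressing cells from less RNA in each cell.

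**Figure D1:**
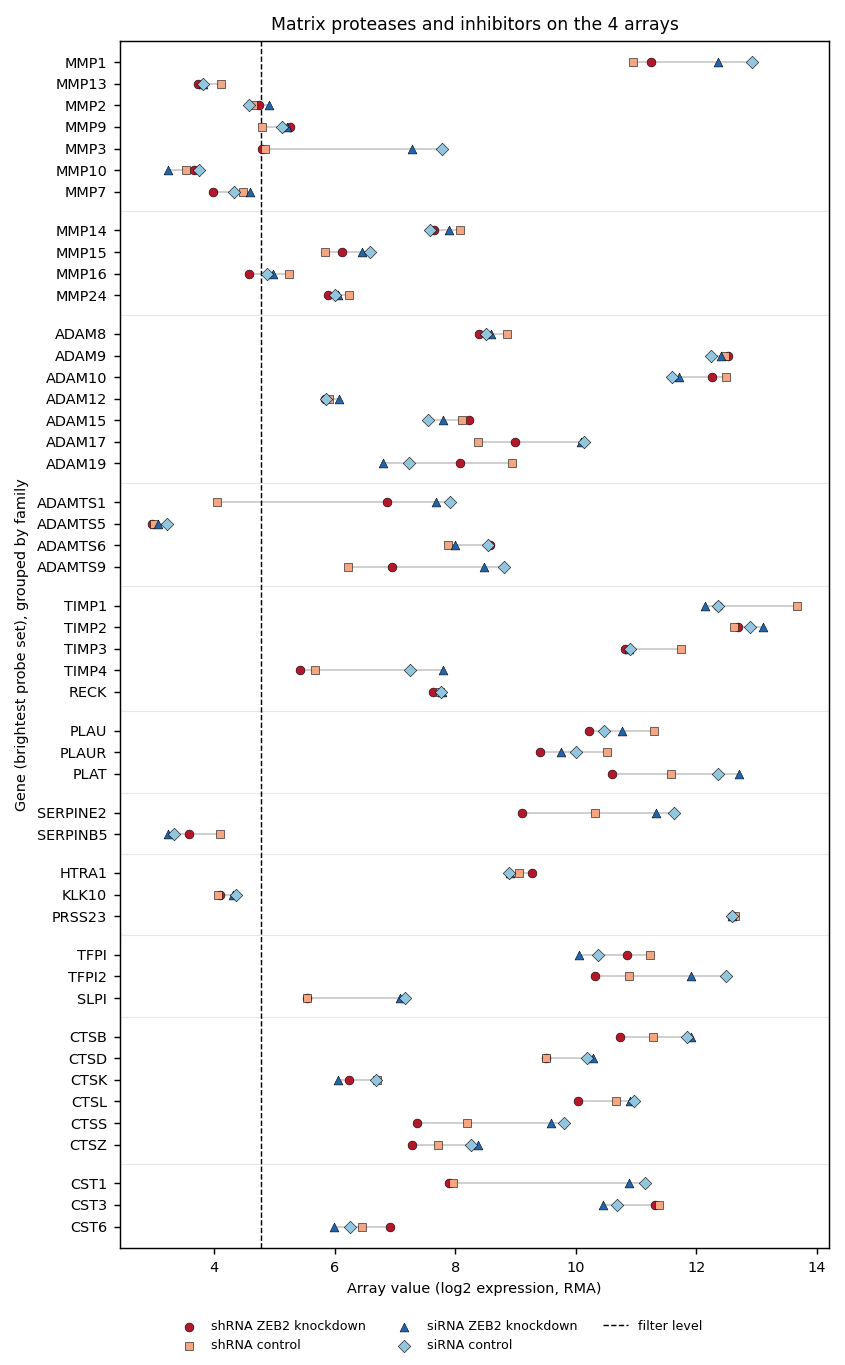
Log2 array value of the brightest probe set of each of the 47 measured genes (rows, by family) on the 4 arrays (symbols), with the 4.77 level as a dashed line. The shRNA control lies alone at one end for TIMP1, TIMP3 and ADAMTS1, and the arrays of the siRNA cultures lie above those of the shRNA cultures for MMP1, MMP3, CST1, SLPI and TIMP4.

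In the stable knockdown, TIMP1, TIMP3, SERPINE2 and the plasminogen activator genes read lower, and ADAMTS1, ADAMTS6 and ADAMTS9 higher, than in the vector control. At 2-fold, 1 gene was higher (ADAMTS1) and 4 were lower (TIMP1, SERPINE2, PLAUR and PLAU) among the 41 genes, where 2.39% of all genes were higher and 2.08% lower. At 1.5-fold, 4 genes were higher (ADAMTS1, ADAMTS9, ADAMTS6 and ADAM17), against 7.55% of all genes. At the same mark 10 genes were lower (the 4 above, with PLAT, TIMP3, ADAM19, CTSS, MMP16 and CTSL), against 7.11% of all genes. By any amount 15 of the 41 genes were higher and 26 lower (63.4%), beside 53.2% of all genes lower. Their median difference was -0.11, beside -0.02 over all genes.

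In the transient knockdown no gene of the group differed 2-fold in either direction, where 0.0464% of all genes were higher and 0.126% lower. At 1.5-fold, 1 gene was lower, the collagen-degrading cathepsin gene CTSK, against 1.51% of all genes, and 0 were higher, against 0.69%. By any amount, 20 genes were higher and 21 lower (51.2%), beside 53.7% of all genes lower. The median was -0.02, beside -0.02 over all genes. The differences lay between -0.63 (CTSK) and 0.54 (TIMP4).

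**Figure D2:**
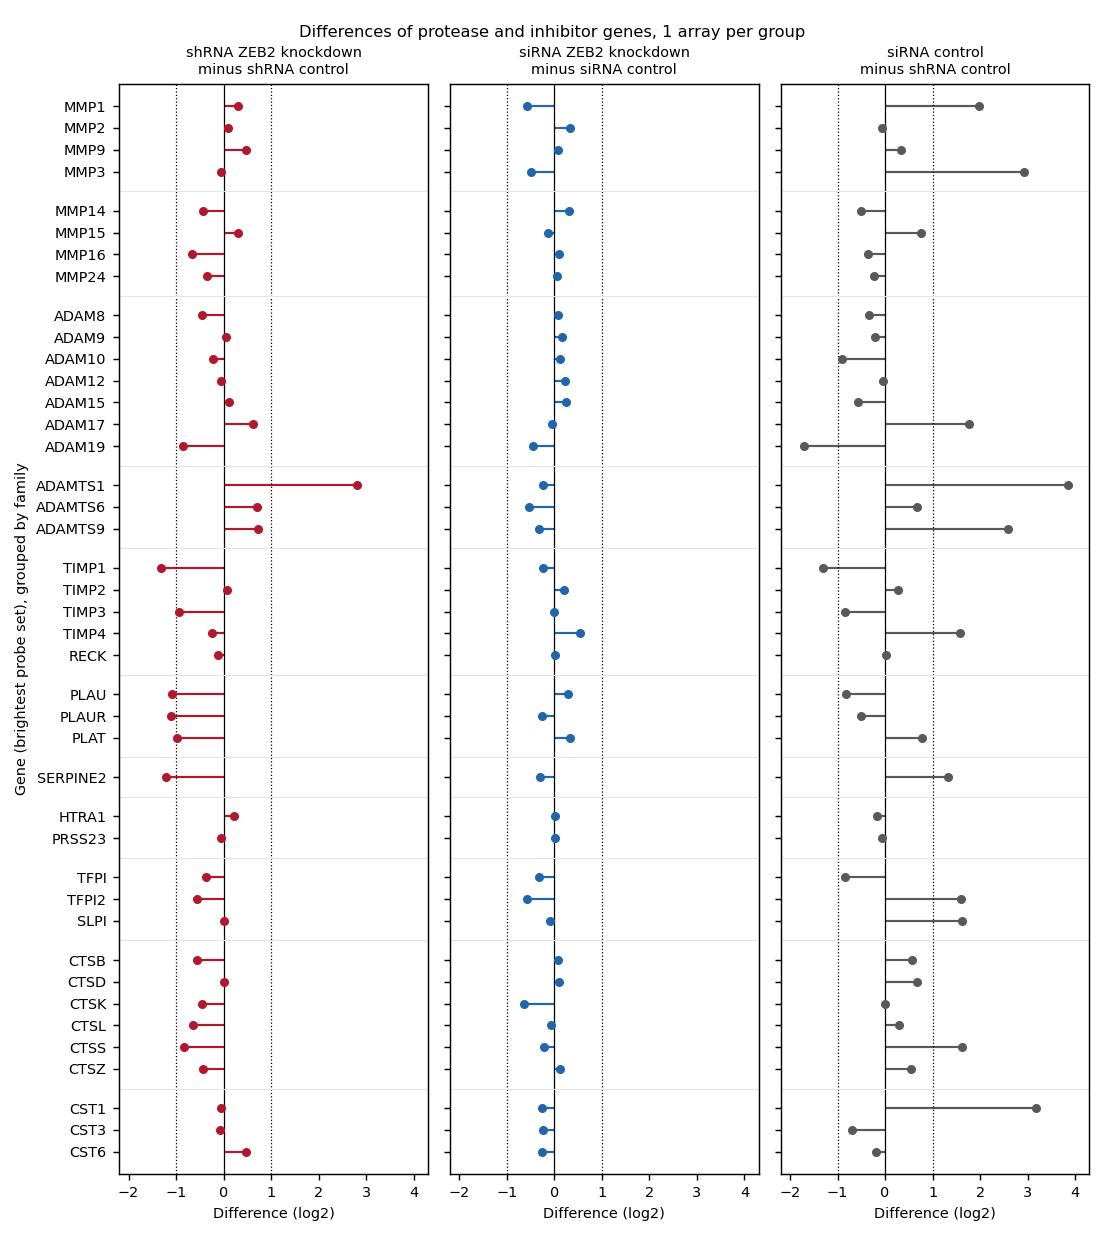
Log2 difference of the brightest probe set of the 41 genes over the dim level, by family, for the stable pair (left), the transient pair (middle) and the siRNA control minus the shRNA control (right), with dotted lines at 2-fold. In the stable pair ADAMTS1 passes the upper line and TIMP1, SERPINE2, PLAUR and PLAU the lower one. No gene passes a line in the transient pair, and 13 genes do between the controls.

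Among the secreted MMPs, MMP1, the interstitial collagenase, read 11.25 in the shRNA knockdown against 10.95 in the shRNA control, and 12.35 in the siRNA knockdown against 12.92 in the siRNA control. MMP3, stromelysin, which cuts proteoglycans and activates collagenase, read 4.79 in the shRNA knockdown against 4.84 in the shRNA control and 7.29 in the siRNA knockdown against 7.77 in the siRNA control. MMP1 and MMP3 were thus lower in the transient knockdown (-0.57 and -0.48), while in the stable one they differed by 0.31 and -0.05. MMP3 sat just above the dim level on both shRNA arrays, where RMA compresses differences. MMP1 and MMP3 are direct neighbours on chromosome 11, in a run of MMP genes that also holds MMP10, MMP13 and MMP7. MMP7, the matrilysin gene, with MMP10 and MMP13, stayed dim on all arrays, between 3.24 and 4.59. The gelatinase genes MMP2 and MMP9 stayed near the dim level. MMP2 read 4.74, 4.65, 4.91 and 4.58 on the shRNA knockdown, shRNA control, siRNA knockdown and siRNA control arrays, so it passed on 1 array. MMP9 read 5.26, 4.79, 5.21 and 5.13 in the same order.

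MMP14, the membrane-type enzyme that activates the MMP2 zymogen, read 7.65 in the shRNA knockdown against 8.08 in the shRNA control, and 7.89 in the siRNA knockdown against 7.58 in the siRNA control. The signs of its differences were opposite in the pairs, at -0.43 and 0.31, and its 4 probe sets lay between -0.43 and -0.09 in the stable pair and between -0.02 and 0.40 in the transient pair. MMP15 differed by 0.29 and -0.14 and MMP24 by -0.35 and 0.06.

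MMP16, which encodes another membrane-type MMP, depended on the probe set. Its brightest read 4.58 in the shRNA knockdown against 5.24 in the shRNA control, a difference of -0.66. Another MMP16 probe set read 3.38 in the shRNA knockdown, 6.65 in the shRNA control, 3.31 in the siRNA knockdown and 3.37 in the siRNA control. The next read 3.51, 6.12, 3.66 and 3.06 in the same order. Both put MMP16 over the dim level on the shRNA control array alone, 9.66-fold and 6.11-fold above the shRNA knockdown. On these probe sets the siRNA cultures were dim like the shRNA knockdown, with ZEB2 present or not. The remaining 2 probe sets were dim throughout, with stable-pair differences of -0.86 and -0.25. Averaged over its probe sets, MMP16 differed by -1.53 in the stable pair and would join the genes at 2-fold.

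**Figure D3:**
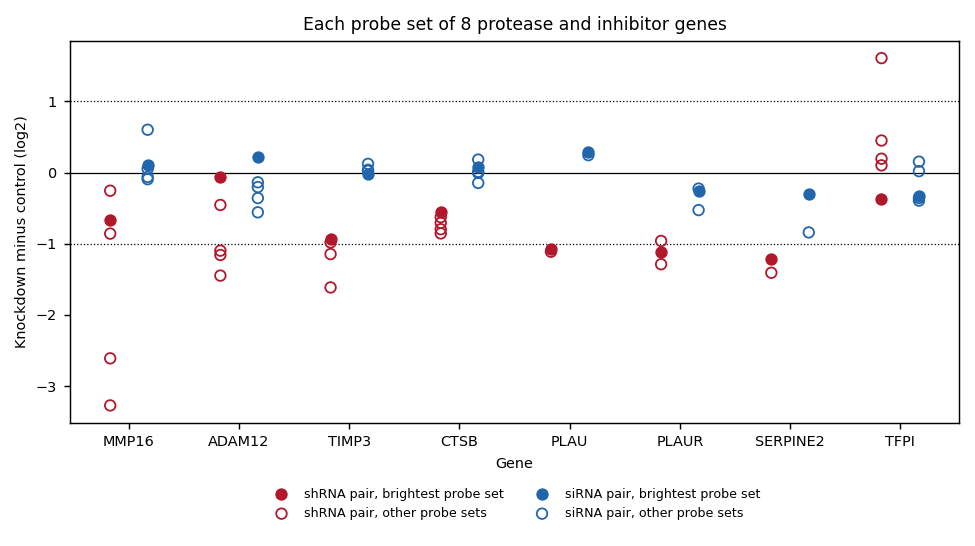
Knockdown minus control (log2) for every probe set of 8 genes in the stable pair (red) and the transient pair (blue), with filled circles for the brightest probe set and dotted lines at 2-fold. In the stable pair all probe sets of TIMP3, CTSB, PLAU, PLAUR and SERPINE2 lie under 0, those of MMP16 spread between -0.25 and -3.27, and those of TFPI lie on both sides of 0.

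The ADAM genes encode membrane proteases that release growth factors, cytokines and receptors from the cell surface. ADAM17, which releases tumour necrosis factor and ligands of the epidermal growth factor receptor, read 8.99 in the shRNA knockdown against 8.38 in the shRNA control, and 10.09 in the siRNA knockdown against 10.14 in the siRNA control. It was higher by 0.61 in the stable pair, and its 3 probe sets gave between 0.46 and 0.83. ADAM19, known for shedding neuregulin, read 8.08 in the shRNA knockdown against 8.94 in the shRNA control and 6.80 in the siRNA knockdown against 7.24 in the siRNA control. Its differences of -0.86 and -0.44 had the same sign, but its second probe set, which stayed between 4.53 and 4.97, gave 0.02 and 0.44. ADAM10, which cuts Notch receptors and cadherins, differed by -0.23 and 0.12, ADAM9 by 0.06 and 0.16, ADAM15 by 0.11 and 0.24, and ADAM8 by -0.46 and 0.08.

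ADAM12, another sheddase, depended on the probe set. Its brightest read between 5.85 and 6.07 on all 4 arrays. The next in brightness read 4.84, 5.94, 3.78 and 4.34 on the shRNA knockdown, shRNA control, siRNA knockdown and siRNA control arrays. Here the shRNA control was again the highest, and it passed the shRNA knockdown by 2.14-fold. Another 2 probe sets gave differences of -1.16 and -1.45 in the stable pair, and all 4 dimmer probe sets were lower in the transient pair too, with differences between -0.56 and -0.14. On these 4 probe sets both siRNA arrays were under the dim level, so the transient differences have no reliable size.

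Several of the ADAMTS proteases cut aggrecan, versican and related proteoglycans. ADAMTS1 read 6.86 in the shRNA knockdown against 4.05 in the shRNA control, 6.99-fold higher, and 7.68 in the siRNA knockdown against 7.91 in the siRNA control. The shRNA control array stood alone under the dim level, so the size of this difference depends on the dim end of the scale. The second ADAMTS1 probe set gave 2.29 and -0.47. LUM, a fibroblast marker and secreted proteoglycan gene, had the same order of arrays, as given with the markers. ADAMTS9 read 6.95 in the shRNA knockdown against 6.22 in the shRNA control and 8.48 in the siRNA knockdown against 8.81 in the siRNA control. ADAMTS6 read 8.58 in the shRNA knockdown against 7.87 in the shRNA control, and 7.996 in the siRNA knockdown against 8.54 in the siRNA control. These 3 ADAMTS members were higher in the stable knockdown (0.70 to 2.80) and lower in the transient one (-0.54 to -0.23) on their brightest probe sets, and above the shRNA control on the siRNA control array. Of 9 further ADAMTS genes over the dim level, 4 were higher and 5 lower in the stable pair (median -0.04). In the transient pair 5 of them were higher and 4 lower. ADAMTS16 among them had the same signs, at 0.25 (stable pair), -0.15 (transient pair) and 0.66 (between the controls). ADAMTS12 gave 0.37, 0.05 and 0.78 in the same order. The dimmest probe sets of the 3 members did not all follow: 2 of ADAMTS9 gave -0.40 and -0.03 in the stable pair, and 1 of ADAMTS6 gave -0.19.

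TIMP1, an inhibitor of many MMPs, had the lowest difference of the 41 genes in the stable pair. It read 12.35 in the shRNA knockdown against 13.67 in the shRNA control, 2.49-fold lower, and 12.13 in the siRNA knockdown against 12.36 in the siRNA control. The shRNA control was the one array that stood apart, the other 3 lying within 12.13 to 12.36. TIMP1 has 1 probe set, so no second reading exists. TIMP3, a matrix-bound inhibitor that also blocks ADAM17, also had its highest value in the shRNA control, with 10.81, 11.75, 10.89 and 10.90 on the shRNA knockdown, shRNA control, siRNA knockdown and siRNA control arrays. All 4 of its probe sets were lower in the stable pair, with differences between -1.61 and -0.94, and lay between -0.02 and 0.12 in the transient pair. TIMP2, which acts with MMP14 to activate MMP2, read 12.69 in the shRNA knockdown against 12.62 in the shRNA control and 13.10 in the siRNA knockdown against 12.89 in the siRNA control. TIMP4 read 5.43 in the shRNA knockdown against 5.67 in the shRNA control, and 7.80 in the siRNA knockdown against 7.26 in the siRNA control, and its siRNA difference of 0.54 was the highest of the group. RECK, a membrane-anchored MMP inhibitor, differed by -0.11 and 0.01, with the first turning to 0.28 under the mean of its 5 probe sets.

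The plasminogen activators and the urokinase receptor read lower together in the stable knockdown. PLAU read 10.21 in the shRNA knockdown against 11.29 in the shRNA control, 2.11-fold lower, and 10.76 in the siRNA knockdown against 10.47 in the siRNA control. PLAUR read 9.40 in the shRNA knockdown against 10.51 in the shRNA control, 2.16-fold lower, and 9.75 in the siRNA knockdown against 10.01 in the siRNA control. PLAT, tissue-type plasminogen activator, read 10.60 in the shRNA knockdown against 11.58 in the shRNA control, 1.98-fold lower, and 12.70 in the siRNA knockdown against 12.36 in the siRNA control. All 6 probe sets of these 3 genes were lower in the stable pair, with differences between -1.29 and -0.96. In the transient pair they lay between -0.53 and 0.34, PLAU and PLAT higher and PLAUR lower. For PLAU and PLAUR the shRNA control was the highest of the 4 arrays, whereas for PLAT both siRNA arrays were above both shRNA arrays.

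Promoter sequences were taken from RefSeq for build GRCh38.p14, in windows of 250 bases before to 50 bases after a start, for 29 of the 47 genes. ZEB2 binds E-boxes, so CACCTG (or CAGGTG on the other strand) was searched, and so was the AP-1 motif TGANTCA, which reads the same on both strands. In no window of these genes did matches of the 2 motifs overlap. Of 33 windows of these genes, 8 held the E-box (24.2%) and 5 the AP-1 motif (15.2%), against 20.6% and 7.71% of all 35116 windows. The genes with an E-box were ADAM17, ADAM19, PLAU, ADAM8, PRSS23, MMP15, SERPINB5 and CTSZ, and those with the AP-1 motif were TFPI2, MMP7, MMP10, SERPINB5 and PLAUR. Genes without a window were not searched, so a gene missing from these lists may still carry a motif. A match is a stretch of letters and says nothing about binding in these cells. The 250 bases before the start are shown for the urokinase gene, its receptor gene and TIMP1, 3 of the 4 genes 2-fold lower in the stable knockdown, and for TFPI2, lower in both knockdowns. Capitals mark the E-box in PLAU and the AP-1 motif in PLAUR and TFPI2, and TIMP1 held no exact match to either. The TIMP1 sequence does hold tgagtaa, which is close to the AP-1 motif but was not counted, as only exact matches were searched.
PLAU, chr10:73910882-73911131, plus strand: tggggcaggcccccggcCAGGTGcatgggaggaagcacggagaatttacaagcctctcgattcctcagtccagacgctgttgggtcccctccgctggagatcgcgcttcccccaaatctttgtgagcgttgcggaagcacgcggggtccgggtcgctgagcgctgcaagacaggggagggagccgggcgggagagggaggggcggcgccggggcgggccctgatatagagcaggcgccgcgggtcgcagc
PLAUR, chr19:43670170-43670419, minus strand: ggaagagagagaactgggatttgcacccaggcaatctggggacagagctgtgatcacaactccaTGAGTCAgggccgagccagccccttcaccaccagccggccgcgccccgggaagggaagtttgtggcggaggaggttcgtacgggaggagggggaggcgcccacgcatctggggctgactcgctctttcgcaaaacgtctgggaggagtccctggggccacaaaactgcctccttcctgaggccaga
TIMP1, chrX:47582186-47582435, plus strand: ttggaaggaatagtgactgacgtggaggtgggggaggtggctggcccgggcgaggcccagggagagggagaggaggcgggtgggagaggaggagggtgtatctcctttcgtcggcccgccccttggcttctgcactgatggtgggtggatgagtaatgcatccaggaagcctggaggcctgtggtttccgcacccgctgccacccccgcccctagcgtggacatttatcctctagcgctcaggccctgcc
TFPI2, chr7:93890754-93891003, minus strand: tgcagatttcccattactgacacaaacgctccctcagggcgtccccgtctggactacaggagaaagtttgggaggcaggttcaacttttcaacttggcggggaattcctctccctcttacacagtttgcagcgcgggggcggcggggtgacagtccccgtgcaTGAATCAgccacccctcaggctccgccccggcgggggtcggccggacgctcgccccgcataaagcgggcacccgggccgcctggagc
The PLAU window shown is the one of its 2 starts that held a match. It held a further E-box 40 bases after the start.

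SERPINE2, also called protease nexin, inhibits thrombin, urokinase and plasmin. It read 9.10 in the shRNA knockdown against 10.32 in the shRNA control, 2.32-fold lower, and 11.33 in the siRNA knockdown against 11.63 in the siRNA control. Its second probe set gave -1.41 and -0.84 in the pairs, so both probe sets were lower in both knockdowns. On the brightest probe set the shRNA knockdown was the lowest of the 4 arrays. On the second, which read 4.81, 6.21, 4.58 and 5.42 on the shRNA knockdown, shRNA control, siRNA knockdown and siRNA control arrays, the shRNA control was the highest. SERPINB5, the maspin gene, stayed dim, between 3.23 and 4.09.

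TFPI2, a Kunitz-type inhibitor of plasmin, read 10.32 in the shRNA knockdown against 10.88 in the shRNA control, and 11.90 in the siRNA knockdown against 12.48 in the siRNA control. Its differences of -0.56 and -0.58 were nearly equal, and its second probe set gave -0.86 and -0.10. TFPI, the inhibitor of tissue factor, differed by -0.37 and -0.32 on its brightest probe set. Its other 4 probe sets were higher in the stable pair, by 0.10 to 1.61, so its direction in that pair depends on the probe set. SLPI, an inhibitor of neutrophil elastase, read 5.55 in the shRNA knockdown against 5.54 in the shRNA control and 7.08 in the siRNA knockdown against 7.17 in the siRNA control. The serine protease genes HTRA1 (0.21 and 0.01) and PRSS23 (-0.05 and 0.01) hardly differed, and KLK10 was dim on all arrays.

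Cathepsins, lysosomal proteases that tumour cells can secrete, were lower in 5 of 6 cases in the stable pair, where 53.2% of all genes were. Of 11 other cathepsins and lysosomal proteases, 6 were higher and 5 lower in that pair, with a median of 0.03. CTSS, which also trims the invariant chain of MHC class II, read 7.36 in the shRNA knockdown against 8.19 in the shRNA control, and 9.59 in the siRNA knockdown against 9.80 in the siRNA control. Its 3 probe sets were all lower in the stable pair, with differences between -1.03 and -0.67, and gave -0.43 to 0.51 in the transient one. CTSB, a cysteine protease, differed by -0.55 and 0.07, and all 5 of its probe sets were lower in the stable pair, with differences between -0.85 and -0.55. CTSL differed by -0.64 and -0.06, CTSZ by -0.43 and 0.11, and the aspartic protease gene CTSD by 0.00 and 0.10. CTSK read 6.24 in the shRNA knockdown against 6.70 in the shRNA control and 6.06 in the siRNA knockdown against 6.69 in the siRNA control, so both knockdowns lay below both controls.

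The cystatins, inhibitors of cysteine cathepsins, stayed under 1.5-fold in both pairs on their brightest probe sets. CST1 read 7.90 in the shRNA knockdown against 7.96 in the shRNA control, and 10.88 in the siRNA knockdown against 11.14 in the siRNA control. CST3, which encodes cystatin C, differed by -0.07 and -0.24, and CST6 by 0.47 and -0.27. In the transient pair another CST3 probe set, over the dim level on all arrays, was 1.83-fold lower, and a dim CST6 probe set 1.60-fold higher. CST4, a near-identical relative that lies between CST3 and CST1 on chromosome 20, read 8.49 in both shRNA cultures, and 10.93 and 11.28 in the siRNA knockdown and siRNA control. Probe sets of CST1 and CST4 may read each other's RNA, so their values are uncertain.

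Counted by role, most inhibitors were lower in each pair. Of 12 inhibitors, 9 were lower in the stable pair and 9 in the transient pair, 7 of them in both (TFPI2, TFPI, SERPINE2, TIMP1, CST3, CST1 and TIMP3). Of 28 proteases, 16 were lower in the stable pair and 11 in the transient pair, 5 of them in both. Among all genes the shares lower were 53.2% and 53.7%, and 4197 of 15082 genes were lower in both. The inhibitors' median differences were -0.18 and -0.23 and those of the proteases -0.06 and 0.07. The gap between the roles was not tested. With the mean of all probe sets 6 and 8 of the 12 inhibitors were lower, with medians of -0.03 and -0.13, and 4 were lower in both. TFPI (0.40) and CST3 (0.07) then turned higher in the stable pair, and TIMP3 (0.04) in the transient pair. Under the other scalings 9 to 10 and 8 to 10 inhibitors were lower, and 6 to 8 in both.

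Taking both pairs, which share no array, 13 of the 41 genes were lower in both, 7 were higher in both, 8 were higher in the stable pair alone and 13 higher in the transient pair alone. Over all 15082 genes these counts were 4197, 3111, 3900 and 3808, and the members' shares lay near them. Pearson's r between the differences of the pairs was -0.10 across the 41 genes, and Spearman's rho -0.05, as a description over genes read on the same arrays. Over all genes r was 0.0019 and rho -0.02. On the brightest probe sets the genes lower by at least 0.3 in both were TFPI2, CTSK, ADAM19, TFPI and SERPINE2, 5 in all. In the same way 0 were higher by 0.3 in both. Over all genes 415 were lower and 191 higher in this way. Other probe sets did not all follow. The second TFPI2 probe set gave -0.10 in the transient pair, and that of ADAM19 gave 0.02 (stable) and 0.44 (transient). For TFPI 4 probe sets were higher in the stable pair. The second SERPINE2 probe set gave -1.41 and -0.84, and CTSK has 1 probe set.

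A common effect of knockdown was tested over all 4 arrays with limma, with the delivery method as a block, which treats both methods as repeats and leaves 1 residual degree of freedom. After Benjamini-Hochberg adjustment over all genes it called 0 of the 41 genes and 0% of all genes. As ZEB2 itself was not called, 0 calls do not show that the members were unchanged. TFPI2 had a mean difference of -0.57 ± 0.14 (SE) with an unadjusted p of 0.0155 and an adjusted p of 0.971 in limma. CTSK had -0.54 ± 0.15 and ADAM19 -0.65 ± 0.19, with unadjusted p of 0.0259 and 0.0297 in limma. These 3 were the members at an unadjusted p under 0.05, where limma gave 384 of all 15082 genes. ZEB2 itself, at -2.82 ± 0.18, had an unadjusted p of 0.000127 and an adjusted p of 0.971 in limma.

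The 2 controls, both of which keep ZEB2, differed at 2-fold in more genes than either knockdown did from its own control. This comparison shares 1 array with each pair, and RNA input, delivery and culture change together in it. Relative to the shRNA control, the siRNA control had 11 of the 41 genes past 2-fold on the higher side and 2 on the lower side, where 10.8% and 4.99% of all genes were. At 1.5-fold the counts were 15 and 7, against 21.9% and 12.1% of all genes. ADAMTS1 was 14.5-fold higher, CST1 9.05-fold, MMP3 7.62-fold, ADAMTS9 6.03-fold, MMP1 3.93-fold and ADAM17 3.40-fold, on the brightest probe sets. SLPI (3.09-fold), CTSS (3.06-fold), TFPI2 (3.04-fold), TIMP4 (2.998-fold) and SERPINE2 (2.49-fold) made up the 11. ADAM19 was 3.26-fold lower and TIMP1 2.47-fold lower. Other probe sets gave smaller folds for ADAM17 (1.82-fold and 1.78-fold) and ADAMTS9 (2.41-fold on the next in brightness), and a log2 difference of 3.22 for ADAMTS1. With the mean of all probe sets ADAMTS9 (0.95) and SERPINE2 (0.26) fell short of 2-fold, which left 9 genes higher. The second SERPINE2 probe set and 1 dim ADAMTS9 probe set went the other way between the controls, at -0.79 and -0.26.

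Each shRNA array was also set beside the siRNA arrays. Of the 5 genes at 2-fold in the stable pair, 4 (ADAMTS1, TIMP1, PLAU and PLAUR) had the shRNA control farther than the shRNA knockdown from the mean of the siRNA arrays, the exception being SERPINE2 on its brightest probe set, beside 73.7% of all genes at 2-fold in that pair. Over the 41 genes this held for 24 (58.5%), beside 56.7% of all genes. The shRNA knockdown was also set against the siRNA control, an alternative added with the data in view, and then 0 genes were 2-fold higher and 13 lower. In that comparison ADAMTS1 differed by -1.05 and SERPINE2 by -2.53. In the stable pair, loss of ZEB2 and a difference between the 2 transduced lines cannot be told apart.

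Some markers of stromal, blood and endothelial cells differed between the cultures as well, in mixed directions within each list. The 6 fibroblast markers had a summed log2 level of 36.0 in the shRNA knockdown against 31.3 in the shRNA control, and 37.4 and 37.3 in the siRNA knockdown and siRNA control. LUM, which encodes the matrix proteoglycan lumican, accounted for most of the gap in the stable pair, at 6.80, 2.92, 8.71 and 8.99 in the same order, and PDGFRA was dim on all arrays. As siRNA control minus shRNA control, LUM differed by 6.07, PDGFRB by 0.80 and PDGFRA by 0.38. COL1A1 (-0.60), COL1A2 (-0.49) and DCN (-0.14) were lower there. The 5 macrophage and leukocyte markers measured summed to 23.6 and 24.5 on the shRNA knockdown and shRNA control arrays, and to 25.5 and 25.7 on the siRNA knockdown and siRNA control arrays. CD14 read 6.94 and 7.30 on the siRNA knockdown and siRNA control arrays and 4.98 and 5.21 on those of the stable pair, while the pan-leukocyte marker PTPRC was dim on all 4. CD14 carried the higher sum of the siRNA control, at a difference of 2.08, while CSF1R, CD3E and PTPRC were lower there than in the shRNA control, by differences of -0.28, -0.35 and -0.42, and CD163 differed by 0.19. The endothelial markers summed to 20.8 in the shRNA knockdown and 21.5 in the shRNA control, and to 22.9 in the siRNA knockdown and 22.7 in the siRNA control, with CDH5 dim on all arrays. In the stable pair KDR was higher by 0.91, while PECAM1 (-0.69), VWF (-0.67) and CDH5 (-0.18) were lower. The part of all these markers in the protease differences was not tested.

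Related genes outside the list, 157 in 11 lists of which 111 were over the dim level, were counted in the same way. At 2-fold 6 were higher and 6 lower in the stable pair, where 2.39% of all genes were higher and 2.08% lower. In the transient pair 0 were, where 0.0464% of all genes were higher and 0.126% lower. Neither other MMPs, other ADAMs nor other ADAMTS genes held a gene over the dim level at 2-fold in either pair. The higher genes were the serpin genes SERPINA1 (2.63), which encodes the elastase inhibitor antitrypsin, and SERPINB7 (1.94), the proteoglycan gene SPOCK1 (2.50), the cystatin gene CST7 (1.63), PAPPA (1.05), which encodes a protease of insulin-like growth factor binding proteins, and the transcription factor gene ETS2 (1.02). The lower ones were PRSS3 (-2.16), which encodes a trypsin, SERPINB9 (-1.57), an inhibitor of granzyme B, SERPIND1 (-1.48), CEMIP (-1.26), which takes part in breakdown of hyaluronan, THBD (-1.25), which encodes thrombomodulin, and PRSS12 (-1.09). In the transient pair these 12 lay between -0.90 (PAPPA) and 0.91 (CEMIP). Of the 15 transcription factors known to act on MMP genes, 8 were higher and 7 lower in the stable pair and 7 and 8 in the transient pair, with FOS at -0.95 and 0.15.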

How the data were processed

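Gene expression was measured in 4 cultures of MDA-MB-231 on Affymetrix U133 Plus 2 arrays, and the groups were taken from the sample titles. The deposited table gives a log2 value for each probe set. The authors used RMA from affy for these log2 values, per the submitters' processing notes, and their versions are not given here. RMA corrects background, gives the arrays 1 distribution and summarises probes, so a change in total RNA is hidden and differences of dim probe sets are compressed. Scanner files were not used here, and the number of arrays limits precision.

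Of 54675 probe sets, 41097 carried 1 gene symbol, 1801 several and 11777 none in the table used here. The 47 measured members had the same symbol in RefSeq. A gene's brightest probe set was kept when its highest array value reached the 40th percentile of all values (4.77), leaving 15082 of 19775 genes. Differences were counted at 2-fold. limma 3.58.1 in R 4.3.3 was used (lmFit, eBayes with trend, 2-sided, Benjamini-Hochberg at 0.05). It was also run on simulated data with the spread of the siRNA pair, an SD of 0.23 over all genes kept. The stable pair had an SD of 0.50, so that run does not show what limma can call in these data. Members with all 4 array values are those at 2-fold in any of the 3 differences plus TIMP1, TIMP2, MMP14 and PLAU. Some further members were added after their values were seen (MMP2, MMP9, MMP16, ADAM12, ADAMTS6, TIMP3, PLAT and CTSK, and CST4 and FOS outside the list). Members and lists were chosen with earlier results of these data known. Figures used matplotlib 3.10.9 in Python 3.11.15.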

Additional observations from a re-analysis of the deposited data

Results flagged for a closer look

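Both knockdowns were compared for genes at least 2-fold from control in one pair and of opposite sign in the other. ADAMTS1 was 2.80 above its control in the stable knockdown and gave -0.23 in the transient one. PLAU gave -1.08 in the stable knockdown and 0.29 in the transient one. With 1 array per group, the difference between the pairs was not tested.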

How the results depend on the processing

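No array could be left out, as each group has 1. In the stable pair, 4 members were higher at 1.5-fold, and 10 members were lower at 1.5-fold and 0 at 3-fold. The 4 members lower at 2-fold there became 6 with the mean of all probe sets, which added MMP16 (-1.53) and TIMP3 (-1.17). Under cyclic loess they became 5. In the transient pair 1 member was lower at 1.5-fold. Between the controls 7 were lower at 1.5-fold and 1 at 3-fold. With the mean of all probe sets 6 were lower in the siRNA control (ADAM8, ADAM10, MMP16, PLAU, TIMP1 and TIMP3). Against the siRNA control, an alternative chosen after the data were seen, the shRNA knockdown had 0 members higher and 13 lower. Among named genes past 2-fold, another probe set gave the opposite sign for SERPINE2 (-0.79) and ADAMTS9 (-0.26) between the controls. Medians lay between -0.17 and -0.09 in the stable pair, between -0.06 and 0.01 in the transient pair and between -0.01 and 0.14 between the controls over 8 alternatives, the last 2 crossing 0 under cyclic loess. Under the other scalings, signs changed for differences under 0.02 in size (SLPI, CTSK, HTRA1, PRSS23, RECK and TIMP3). The mean of all probe sets turned further signs, among them ADAM19, ADAM12 and CST6 in the transient pair, TFPI, RECK and CST3 in the stable pair and CTSB between the controls. limma called 0 members under each of its 11 alternatives, with 0 to 6 members at an unadjusted p under 0.05. Dim probe sets give no reliable size of difference.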
